A study of Danio rerio with 2 samples.

Results

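The embryonic globin genes of zebrafish (Danio rerio) are described here in dissected hearts of 2 genotypes. They were taken by symbol from the deposited count table, which gave 4 alpha-type genes (hbae1.1, hbae1.3, hbae3 and hbae5) and 5 beta-type genes (hbbe1.1, hbbe1.2, hbbe1.3, hbbe2 and hbbe3), 9 of 32057 genes in all. Both libraries came from hearts at 96 hours post fertilisation. In one library, called the nju18 library after its label, the fish carried the nju18 allele of the forkhead gene foxc1a, whose product is a transcription factor. The other, called the TU library, was made from hearts of wild-type TU fish. No treatment is named in the labels, and neither the number of hearts behind a library nor the zygosity of the allele is stated in the labels.

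Haemoglobin carries oxygen in red cells and is assembled from alpha and beta globin chains, each of which holds a heme group. In zebrafish the embryonic chains are made in the first wave of red cells, and adult chains take their place as later red cells mature. The genes lie in a major cluster and a smaller minor cluster on different chromosomes, with alpha and beta genes interspersed in both. Red cells circulate through the chambers of the heart at this stage.

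The nju18 library held 17467109 counted reads and the TU library 20049851. With 1 library per genotype there is no spread between replicates, so the differences below are descriptions without a replicate check, and none was tested between genotypes. Limits printed in brackets are exact 95% limits (Clopper-Pearson) for counting error alone. They describe these libraries, not the genotypes. Reads were expressed as CPM, counts per 1000000 reads of a library, after adjustment with TMM factors, a scaling that balances the bulk of genes between libraries. Total-count scaling moves log2 ratios by -0.29, and by less for low genes where 1 CPM is added. foxc1a had 798 reads in the nju18 and 629 in the TU library, which does not check the labels, since the effect of the allele on the transcript is not stated. The heart muscle light chain gene myl7 had 69217 and 57844 reads, so both libraries held abundant heart RNA.

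Embryonic globin transcripts were lower in the nju18 library as a sum and for 8 of the 9 genes, and hbbe3 stood in the opposite direction. Together the 9 genes had 14325 reads in the nju18 library, 0.0820% of that library, and 59954 reads in the TU library, 0.299%. After TMM scaling this was 907 and 2704 CPM, a ratio of 0.335 (95% limits 0.329 to 0.342), or 2.98-fold lower. In whole-heart RNA, fewer red cells, less globin RNA per red cell and a different mix of other tissue in the sample cannot be told apart. Of the 7 genes at 5 CPM or more, all of which passed that level in both libraries, 6 were at least 2-fold lower on the log2 scale with 1 CPM added. Among all 12259 genes at that level, 11.1% were at least 2-fold lower. The median log2 ratio was -1.29 over the 7 genes and 0.04 over all genes at 5 CPM or more.

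**Figure D1:**
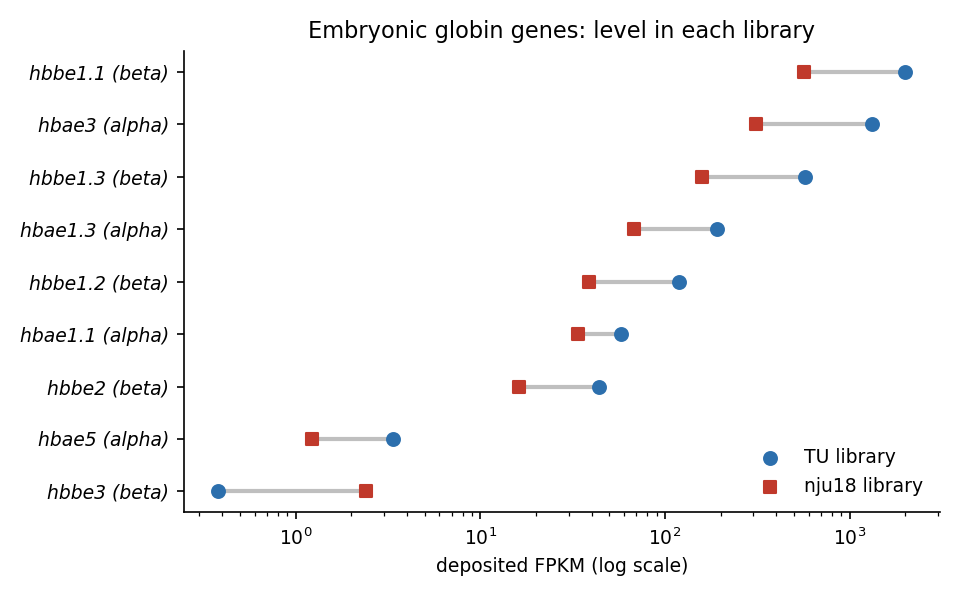
Level of each embryonic globin gene as deposited FPKM (log axis) in the TU library (blue circles) and the nju18 library (red squares), joined by a grey line. The squares lie to the left of the circles for 8 of 9 genes, and hbbe3 at the foot is the exception.

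The beta-type genes of the major cluster carried most of the globin reads. hbbe1.1, the most abundant embryonic globin gene in both libraries, had 6730 reads in the nju18 and 27474 in the TU library. Per length, it stood at 563 and 2003 FPKM (fragments per kilobase of gene, scaled to library size), rank 147 and rank 43 among all genes of the respective library. Its scaled ratio was 0.344 (95% limits 0.335 to 0.353). This most abundant gene was thus 2.91-fold lower in the nju18 library.

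hbbe1.3 had 1619 and 6651 reads, or 159 and 570 FPKM, and a ratio of 0.342 (95% limits 0.324 to 0.361). hbbe1.2 had 464 and 1629 reads, or 38.8 and 119 FPKM, with a ratio of 0.400 (95% limits 0.360 to 0.444). These 3 genes are close copies of each other, and the labels do not say how reads that fit several copies were counted, which leaves the split between them uncertain. Summed over the 3 copies, which removes the split but not any reads left out of the counts, they had 8813 and 35754 reads and a ratio of 0.346 (95% limits 0.338 to 0.354). The sum and each copy were on the lower side by more than 2-fold.

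Among the alpha-type genes of the same cluster, hbae3 led with 4268 and 20732 reads, or 310 and 1314 FPKM. Its ratio of 0.289 (95% limits 0.280 to 0.299) was the lowest of the 9 members, 3.46-fold lower, and 3.03% of genes at 5 CPM or more had a lower log2 ratio than its -1.79. Of the 1649 genes that reached 100 CPM, 37 had a lower log2 ratio than hbae3. hbae3, hbbe1.1 and hbbe1.3 were the 3 members at that level, and each was at least 2-fold lower. How many of the 1649 genes were at least 2-fold lower was not counted.

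hbae1.3 had 658 and 2128 reads, or 67.9 and 191 FPKM, with a ratio of 0.434 (95% limits 0.397 to 0.474). hbae1.1 had 371 and 732 reads, or 33.6 and 57.7 FPKM, and its ratio of 0.712 (95% limits 0.626 to 0.807) was the closest to 1 of the 9. It was 1.41-fold lower and so the only member at 5 CPM or more that missed the 2-fold rule, which it also did with total-count scaling (log2 ratio -0.75). The hbae1 genes are near copies too, so a gap between hbae1.1 and hbae1.3 depends on how their reads were divided. With hbae1.2 included, the hbae1 copies summed to 1248 and 3527 reads, a ratio of 0.497 (95% limits 0.465 to 0.530).

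**Figure D2:**
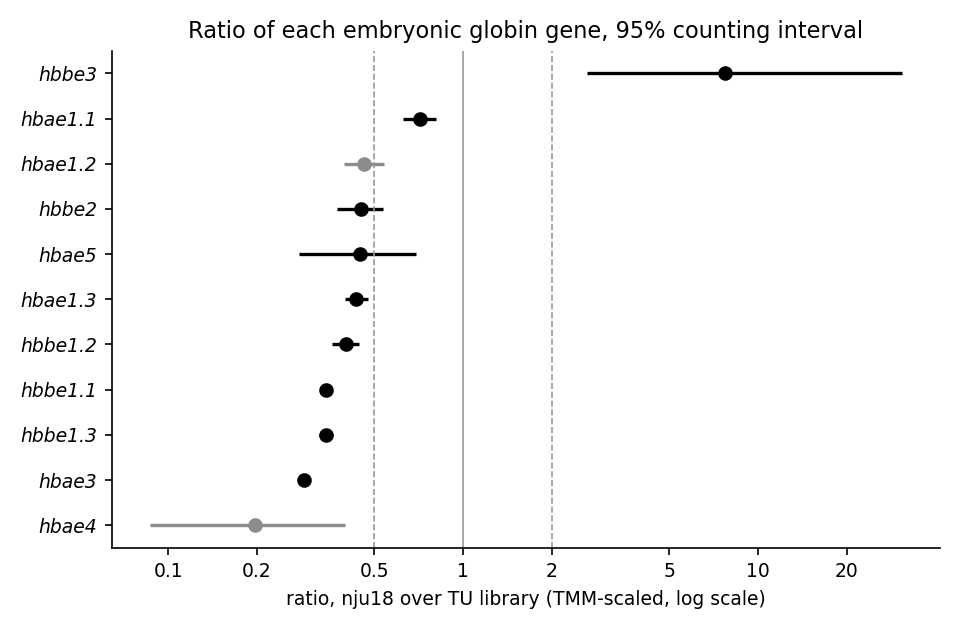
Ratio of each embryonic globin gene, nju18 over TU library (TMM-scaled, log axis), with bars for the exact 95% counting limits and dashed lines at 2-fold. The 9 members are black, and hbae1.2 and hbae4 are grey. hbae3 lies lowest of the members at 0.289, hbae1.1 nearest to 1 at 0.712, and hbbe3 alone lies above 1 at 7.72.

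The 3 members of the minor cluster were scarce in both libraries and went both ways. hbbe2, the most abundant of them, had 166 reads in the nju18 and 519 in the TU library, or 16.1 and 43.9 FPKM, a ratio of 0.449 (95% limits 0.375 to 0.536). hbae5 had 27 and 85 reads, or 1.22 and 3.36 FPKM. Its ratio of 0.446 (95% limits 0.278 to 0.695) lay near that of hbbe2, but it stayed under 5 CPM in both libraries and was not counted by the 2-fold rule.

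hbbe3 had 22 reads in the nju18 library and 4 in the TU library, or 2.40 and 0.380 FPKM. This was a ratio of 7.72 with a wide counting limits of 2.62 to 30.8, and the gene was also under 5 CPM in both. Within the summed reads of hbbe2 and hbbe3, beta-type genes of the same cluster, hbbe3 took 11.7% (22 of 188 reads, 95% limits 7.48 to 17.2) and 0.765% (4 of 523 reads, 95% limits 0.209 to 1.95). Such a share does not depend on how the libraries are scaled, but it also rises where hbbe2 is lower, and hbbe2 had 166 and 519 reads. Its counting intervals did not overlap, and how many other gene pairs would do the same was not counted. With so few reads in 1 library per genotype, the direction of hbbe3 has no further check in these data.

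In the authors' deposited table, which gives a false discovery rate (FDR) per gene, 1 member was called lower and 1 higher, against 7.63% and 4.24% of all 23256 genes in that table. The lower call was hbae3, with a log2 fold change of -1.83 and an FDR of 0.0286 in the authors' deposited table. The higher call was hbbe3, with 2.91 and 0.00736 in the authors' deposited table. hbbe1.1 was not called there despite a log2 fold change of -1.58 (FDR 0.192 in the authors' deposited table), and hbbe1.3 was not called either (-1.58 and 0.101 in the authors' deposited table). The labels do not say how an FDR was obtained without replicate libraries.

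The globin pool kept its order by reads in both libraries, although its size and several of its shares differed. Ranked by reads, the 9 genes came in the same order in both, from hbbe1.1, hbae3 and hbbe1.3 down to hbae5 and hbbe3. Per length, in FPKM, hbbe3 and hbae5 changed places in the nju18 library. hbbe1.1 and hbae3 together took 76.8% of member reads in the nju18 library (95% limits 76.1 to 77.5) and 80.4% in the other (80.1 to 80.7).

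Alpha-type genes gave 37.2% of member reads in the nju18 library (95% limits 36.37 to 37.96) and 39.5% in the TU library (39.1 to 39.9). The alpha sum had a ratio of 0.316 (95% limits 0.306 to 0.325) and the beta sum one of 0.348 (0.340 to 0.357), so both chains were lower by similar factors, although the limits did not overlap. hbae3 went from 34.6% of member reads in the TU library to 29.8% in the nju18 library, while hbbe1.1 had 45.8% and 47.0% and hbbe1.3 had 11.1% and 11.3%. hbae1.1 took 1.22% in the TU library (95% limits 1.13 to 1.31) and 2.59% in the nju18 one (2.34 to 2.86). The minor cluster gave 1.01% of member reads in the TU library (0.935 to 1.098) and 1.501% in the nju18 one (1.31 to 1.71). hbae1.3 took 3.55% and 4.59% and hbbe1.2 took 2.72% and 3.24%, again higher shares in the nju18 library. The limits of hbae3, hbae1.1, hbae1.3, hbbe1.2, hbbe2, hbbe3 and the minor cluster did not overlap between libraries, and those of hbbe1.1, hbbe1.3 and hbae5 did. How often such limits fail to overlap among all genes was not counted. No spread between hearts or libraries is known against which to set them.

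**Figure D3:**
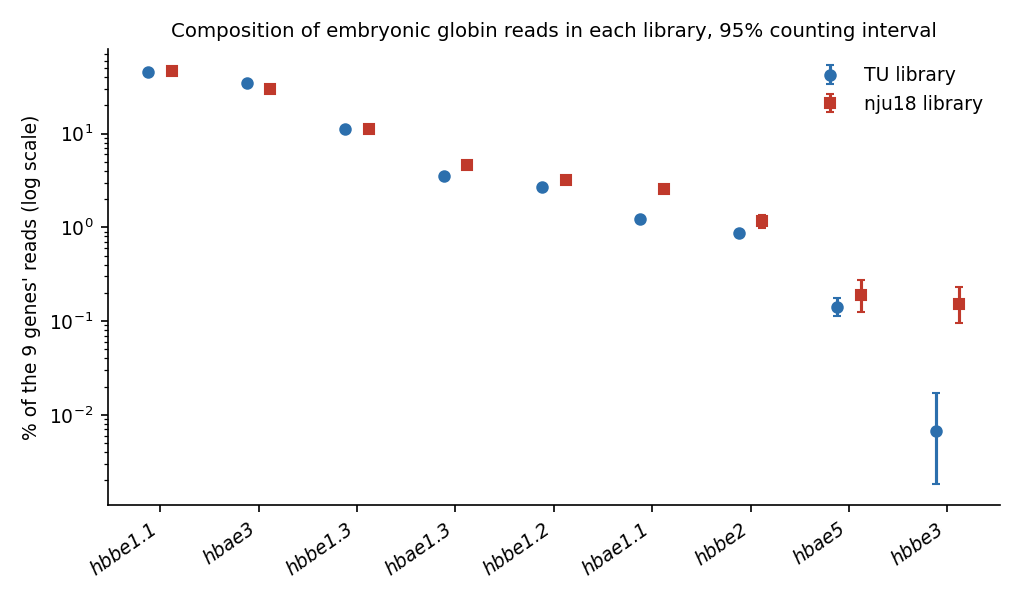
Share of the 9 genes' reads that fell on each gene (percent, log axis) in the TU library (blue circles) and the nju18 library (red squares), with bars for the exact 95% counting limits. The order by reads is the same in both libraries, hbae1.1 stands at 1.22% and 2.59%, and hbbe3 shows the widest gap.

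The quotient of neighbouring beta and alpha genes, on the FPKM scale, varied from pair to pair. hbbe1.1 stood 16.8 times above its neighbour hbae1.1 in the nju18 library and 34.7 times in the other. hbbe1.3 stood 2.35 and 2.98 times above hbae1.3, and hbbe1.2 stood 1.69 and 1.95 times above hbae1.2. In the minor cluster hbbe2 stood 13.2 and 13.1 times above hbae5, an almost equal factor. The pair hbbe3 and hbae4 was the one that changed sides, with a beta to alpha quotient of 3.54 in the nju18 library and 0.0905 in the other, from 22 and 9 reads against 4 and 64.

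Globin genes outside the member list were looked up by symbol and by gene ID. hbae1.2, an embryonic alpha gene of the major cluster, had 219 and 667 reads and a ratio of 0.461 (95% limits 0.394 to 0.538). hbae4, an embryonic alpha gene of the minor cluster that the count table lists under a clone-based name, had 9 and 64 reads and a ratio of 0.197 (95% limits 0.0864 to 0.399). Both lay on the side of most members, and adding them gave a summed ratio of 0.337.

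The adult globin genes hbaa1, hbaa2, hbba1 and hbba2, and the adult-type gene ba1l, had 0 reads in both libraries. A count of 0 allows up to 3 reads, or 0.190 CPM in the nju18 and 0.135 CPM in the TU library, where reads of these genes were counted. The adult genes include close copies, and the labels do not say whether reads that fit several copies were counted, so 0 reads gives no firm limit on them. Among globins other than the alpha and beta types, mb and cygb1 stood apart from the members and ngb lay on their side. Myoglobin (mb), an oxygen-binding globin of muscle, had 6460 and 8074 reads, a ratio of 1.12 (95% limits 1.09 to 1.16). Cytoglobin 1 (cygb1) had 1659 and 2171 reads and a ratio of 1.07 (1.01 to 1.14), and both ratios fall below 1 with total-count scaling. Neuroglobin (ngb), a globin of neurons, had 3 and 27 reads, a ratio of 0.156 (95% limits 0.0303 to 0.507), xgb had 5 and 2 reads, and cygb2 had 0 in both.

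Other red cell genes split into some that stood near the globins and many that did not. Over lists of heme synthesis, red cell membrane, and red cell iron and enzyme genes, 6 of 33 genes at 5 CPM or more were at least 2-fold lower and 3 at least 2-fold higher, against 11.1% and 9.61% of all genes. Of these, rhd, steap3 and fech passed the 5 CPM level through the TU library alone, and slc25a38a and 1 ank1a gene through the nju18 library alone. Among the 27 genes at 5 CPM or more in both libraries, 3 met the 2-fold rule on the lower side and 1 on the higher side. The shares of all genes given above use 5 CPM in either library, and those for both libraries were not counted. The median log2 ratio over the 33 genes was -0.13. Many genes on these lists are also used outside red cells.

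slc4a1a, which encodes the anion exchanger of the red cell membrane (band 3), had 1400 and 5249 reads, a ratio of 0.375 (95% limits 0.353 to 0.397). cahz, the red cell carbonic anhydrase gene of zebrafish, had 668 and 2564 reads and a ratio of 0.366 (95% limits 0.335 to 0.398). The ratios of slc4a1a and cahz lie near those of the globins, and for that reason alone member reads set against them were nearly level. There were 10.2 member reads per slc4a1a read in the nju18 and 11.4 in the TU library. Per cahz read the values were 21.4 and 23.4. Other genes of the red cell lists did not give level values, with 1.84 and 4.76 member reads per read of rhag, the Rh-associated glycoprotein gene, and 1.33 and 4.96 per read of the peroxiredoxin gene prdx2. Against the endothelial cadherin gene cdh5 they were 2.78 and 10.7, a wider gap than for slc4a1a and cahz, which follows from its own ratio of 1.29.

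The remaining genes that met the 2-fold rule on the lower side were add2, which encodes an adducin of the membrane skeleton (5.76 and 19.1 CPM), rhd, of the Rh family (1.58 and 5.59 CPM), steap3, a ferrireductase gene of iron uptake (1.14 and 7.31 CPM), and fech, ferrochelatase, which inserts iron into the heme ring (1.90 and 5.64 CPM). On the higher side were slc25a38a, a mitochondrial glycine carrier gene of heme synthesis (8.10 and 1.26 CPM), cat, catalase (152 and 55.6 CPM), and 1 of the 2 gene IDs named ank1a (8.42 and 3.34 CPM). rhag had 492 and 568 CPM, and sptb, the spectrin beta gene, had 112 and 66.2 CPM.

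Most enzymes of heme synthesis lay between the 2-fold limits. alad had 39.4 and 29.8 CPM, uros 17.8 and 18.2 CPM, and urod 19.8 and 28.1 CPM. cpox had 57.1 and 42.7 CPM and ppox 4.94 and 5.23 CPM. hmbsa had 34.0 and 31.1 CPM, while hmbsb had 31.7 and 50.2 CPM, a ratio of 0.632 (95% limits 0.568 to 0.703). alas2, the erythroid gene for the first enzyme of the pathway, had 28 reads in the nju18 and 14 in the TU library, a ratio of 2.81 (95% limits 1.43 to 5.77), and was under 5 CPM in both. This red-cell gene therefore stood on the opposite side from slc4a1a, cahz and the globins. slc25a37, the mitoferrin gene that supplies iron for heme, had 13 and 55 reads and a ratio of 0.332 (95% limits 0.166 to 0.615).

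Regulators of red cell formation gave 1 gene at least 2-fold lower and 1 higher of 11 at 5 CPM or more, against 11.1% and 9.61% of all genes at that level. The median log2 ratio of the 11 was -0.16. klf1, known in mammals as an activator of beta globin genes, had 92 and 286 reads, a ratio of 0.452 (95% limits 0.353 to 0.573). zfpm1, which encodes a cofactor of GATA1, was on the higher side with 341 and 181 reads and a ratio of 2.65 (95% limits 2.20 to 3.19). gata1a, the master regulator gene of red cells, had 6 and 12 reads, too few to place (ratio 0.702, 95% limits 0.216 to 2.02).

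epor, the erythropoietin receptor gene, had 6 and 65 reads, a ratio of 0.130 (95% limits 0.0459 to 0.298), at under 5 CPM in both. lmo2 had 142 and 399 reads and myb 94 and 244 reads, both genes of blood progenitors, while tal1, which also acts in blood progenitors, had 30.1 and 33.8 CPM. Among genes known in mammals as repressors in globin switching, bcl11aa stood close to level at 18.5 and 19.3 CPM. sox6 had 80.0 and 63.5 CPM, a ratio of 1.26 (95% limits 1.17 to 1.36). The other copy, bcl11ab, had 4 and 15 reads, too few to place (ratio 0.374, 95% limits 0.0905 to 1.18). bcl11aa and sox6 are also used outside blood.

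**Figure D4:**
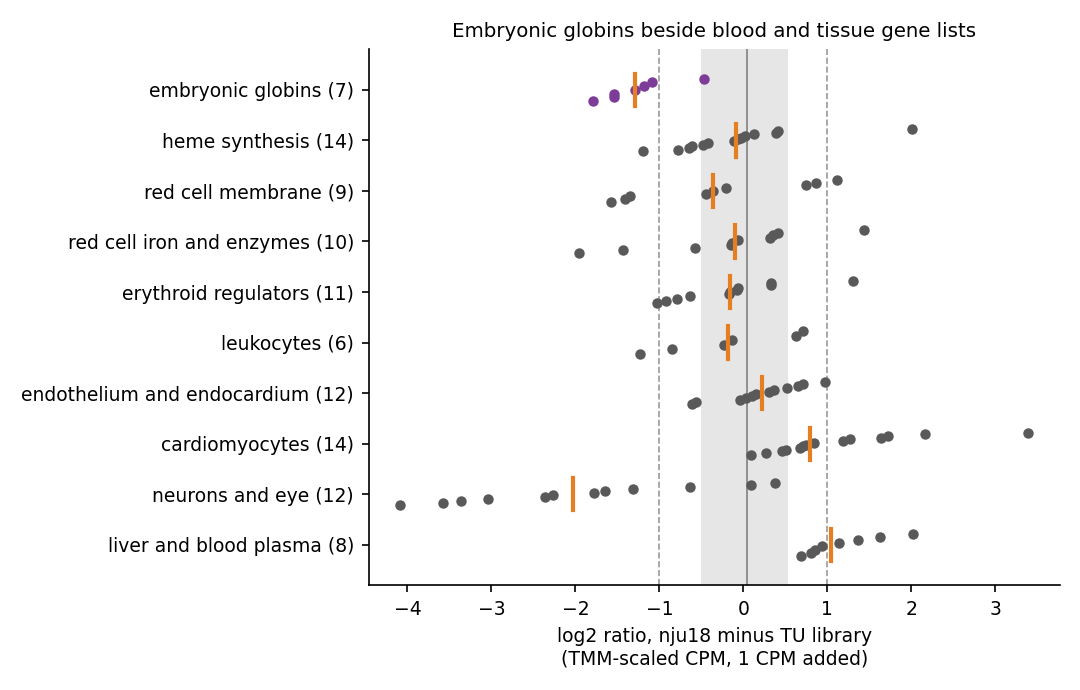
Log2 ratio, nju18 minus TU library (TMM-scaled CPM, 1 CPM added), of each gene at 5 CPM or more in the embryonic globin set (purple) and in blood and tissue lists (grey), with the number of genes in brackets, the list median as an orange bar, the middle 50% of all genes as a grey band and dashed lines at 2-fold. The globin median is -1.29, those of the 3 red cell lists lie between -0.36 and -0.09, cardiomyocyte genes lie to the right and most neuron and eye genes to the left.

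Markers of other cells in the samples moved too. Cardiomyocyte genes summed to 22155 CPM in the nju18 and 7625 CPM in the TU library, and 6 of 14 were past 2-fold on the higher side and 0 on the lower. Skeletal muscle genes summed to 7782 and 2413 CPM, and 7 of 10 were past 2-fold on the higher side and 0 on the lower. Neuron and eye genes summed to 1663 and 3831 CPM, and 9 of 12 were past 2-fold on the lower side and 0 on the higher. Liver and plasma genes summed to 426 and 191 CPM, and 4 of 8 were past 2-fold on the higher side, of which cp passed the 5 CPM level through the nju18 library alone. Endothelial and endocardial genes stood near level at 973 and 830 CPM, with 0 of 12 past 2-fold. Their part in the globin difference was not tested.

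Among other blood cells, leukocyte genes summed to 54.1 and 71.6 CPM, with 1 of 6 at least 2-fold lower, against 11.1% of all genes. That gene was the neutrophil peroxidase gene mpx (113 and 402 reads, ratio 0.395, 95% limits 0.317 to 0.487). On the higher side were marco (104 and 81 reads, ratio 1.80, 95% limits 1.34 to 2.44) and ptprc (93 and 77 reads, ratio 1.70, 95% limits 1.24 to 2.32). The ratios of the rest were 0.846 for lcp1, 0.902 for cxcr4b and 0.495 for cpa5. lyz and lck were at 0 in both libraries. The 7 thrombocyte genes summed to 318 and 515 CPM, of which thbs1b alone gave 310 and 500 CPM (ratio 0.621). Of the others, fermt3b was the only one to reach 5 CPM (38 and 111 reads, ratio 0.481), gp1bb had 32 and 91 reads (ratio 0.494), gp9 had 8 and 50 reads (ratio 0.225), and the receptor gene itga2b had 10 and 25 reads. The summed members had a log2 ratio of -1.58, with no CPM added. Of list genes at 5 CPM or more, the nearest log2 ratios with 1 CPM added were those of add2 (-1.57), the synaptic gene syt1a (-1.64) and cahz (-1.43). Without that addition the ratios were 0.301 for add2, 0.307 for syt1a, 0.366 for cahz and 0.337 for fech, against 0.335 for the sum. Which gene lies nearest thus depends on the measure, and this is a likeness over 2 libraries only.

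The place of the genes along the chromosomes was read as an order of names from a RefSeq table of another assembly (GRCz12tu) than the GRCz11 named by the submitters, so no coordinates are given. The major cluster lies on chromosome 3, where the adult genes come first, followed by si:ch211-5k11.8, hbbe1.1, hbae1.1, hbbe1.2, hbae1.2, hbbe1.3, hbae1.3 and hbae3. The gene si:ch211-5k11.8, which has no globin symbol, had 0 reads in the nju18 and 2 in the TU library. The minor cluster lies on chromosome 12 in the order hbae4, hbbe3, hbbe2 and hbae5. For hbbe1.1 the place is that of the RefSeq gene with its symbol, since its row in the count table carries no other identifier shared with that table.

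Of the 8 nearest protein-coding neighbours of the major cluster outside the globins, 5 were at 5 CPM or more and 0 of these were past 2-fold in either direction. nprl3, whose introns hold distant enhancers of the globin genes in vertebrates, had 151 and 147 reads, a ratio of 1.44 (95% limits 1.14 to 1.82), and kank2, next to hbae3, had 110 and 308 reads, a ratio of 0.501 (95% limits 0.400 to 0.625). Beside the minor cluster, the 2 neighbours closest to hbae5 were higher in the nju18 library, unlike hbae5 and hbbe2. aqp8a.2, a water channel gene, had 1308 and 52 reads, a ratio of 35.3 (95% limits 26.8 to 47.5), and aqp8a.1 had 607 and 199 reads, a ratio of 4.28 (95% limits 3.64 to 5.05). The next gene, lcmt1, had 70 and 47 reads and a ratio of 2.09 (95% limits 1.42 to 3.09), and rhbdf1b on the other side of the cluster had 30 and 57 reads and a ratio of 0.739 (95% limits 0.458 to 1.17). hbbe3 is separated from the aquaporin genes by hbbe2 and hbae5, which stood in the opposite direction.

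**Figure D5:**
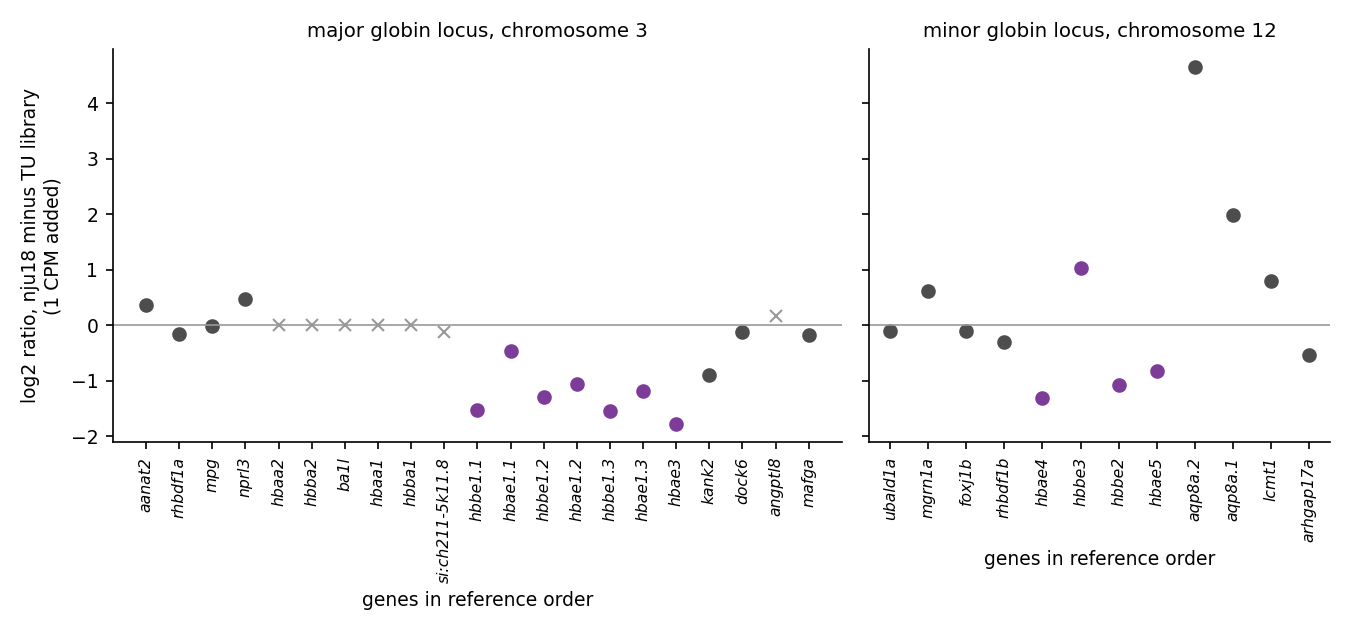
Log2 ratio, nju18 minus TU library (1 CPM added), of globin genes (purple) and of the 4 nearest protein-coding neighbours on each side (dark grey) in reference order, for the major cluster on chromosome 3 and the minor cluster on chromosome 12, with crosses for genes of at most 2 reads in all. The embryonic genes of the major cluster lie below 0, and in the minor cluster hbbe3 and the aquaporin genes lie above 0.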

How the data were processed

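RNA from dissected, frozen zebrafish hearts at 96 hours post fertilisation was sequenced as 1 library per genotype, and groups follow the genotype label. Per the submitters' processing notes, the tools were HISAT2, featureCounts, bcl2fastq and Trimmomatic and the build GRCz11, all without versions or settings. The authors deposited raw counts per Ensembl gene. The deposited FPKM values equal the count over the library total and 1 length per gene, as tested on the files. The authors' deposited comparison table, named for EBSeq, holds a signal per library (the count over a size factor of 0.854 or 1.17), a fold ratio, its log2 value and an FDR (used as a q-value with a threshold of 0.05).

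Counts were scaled with TMM (edgeR 4.0.16, R 4.3.3). Log2 ratios are of CPM with 1 CPM added, whereas ratios are printed with no such addition. With no replicates to test on, genes that reached 5 CPM in at least 1 library were counted by a 2-fold size rule. Exact intervals came from scipy 1.17.1 (Python 3.11.15) and take each read as an independent count. No molecular identifiers are named in the labels, so reads copied from the same molecule could not be told apart. The printed limits may therefore be too narrow. Members and lists were chosen with earlier results of these data known. All 9 members are named, with other globins, list genes of the red cell, regulator and blood lists by size, and the 4 neighbours per side. List symbols without a matching gene were not used here. The scripts were tested on simulated counts. Alternatives included DESeq2 1.42.0 size factors.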

Additional observations from a re-analysis of the deposited data

How the results depend on the processing

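The direction of each of the 9 single ratios was the same with total-count scaling, DESeq2 size factors and a total without the 7 genes over 1% of a library. The summed ratio of 0.335 was 0.274 with total-count scaling, 0.279 with the total without those genes, 0.277 with the deposited FPKM and 0.328 without hbbe1.1. The count of 6 members at least 2-fold lower ranged from 5 to 6 over scalings, added CPM, filters and a 1.5-fold rule, was 0 with a 4-fold rule and 1 with the authors' calls in place of the rule. The count of 6 other red cell genes was 2 with a filter of 20 CPM, which left 18 genes, 0 with a 4-fold rule and 3 with the authors' calls. The alpha share (37.2% nju18, 39.5% TU) was 34.6% and 36.4% with FPKM, 70.1% and 72.9% without hbbe1.1, and 38.2% and 40.2% with hbae1.2 and hbae4 added, an alternative chosen after seeing the data. The minor cluster share (1.501% nju18, 1.01% TU) was 2.83% and 1.87% without hbbe1.1 and 1.65% and 1.11% with FPKM. With hbae1.2 and hbae4 added it was 1.54% and 1.11%. No paired analysis was possible because there was 1 library per genotype. Depth limits every gene with under 100 reads in each library. Among these were hbbe3, hbae5, hbae4, alas2, epor, ngb, slc25a37, gata1a, gp1bb, gp9, lcmt1 and rhbdf1b.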
